A study of Mus musculus with 8 samples.

Results

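Lipoprotein lipase, its related lipases and the proteins that control them were examined in the liver of *Apoe*-/- mice treated with isoginkgetin (ISOGK), a natural biflavonoid studied as an inhibitor of ATP-citrate lyase. The 7 genes were taken by symbol from the table of gene counts: *Lpl*, *Lipc*, *Lipg*, *Angptl4*, *Angptl8*, *Gpihbp1* and *Lmf1*, of 16540 genes in all. All 7 passed the filter on low counts, which kept 12307 genes. The libraries came from 4 vehicle-treated and 4 ISOGK-treated male mice, 1 library per mouse, and every mouse of both groups carried the *Apoe* knockout, which raises plasma cholesterol. ISOGK was given at 20 mg/kg per day for 8 weeks, by intraperitoneal injection per the study's methods, and the vehicle columns of the table are named DMSO. The deposited labels give a Western diet and the study's methods a high cholesterol diet for these mice; their age is not given in the sources used here.

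Lipoprotein lipase hydrolyzes the triglyceride of chylomicrons and very low-density lipoprotein on the surface of capillaries, and releases fatty acids to the tissue. The enzyme is folded in the endoplasmic reticulum with the help of lipase maturation factor 1 (*Lmf1*) and is carried across the endothelium by GPIHBP1. Angiopoietin-like proteins inhibit it, ANGPTL4 mainly in fasting and ANGPTL8 after feeding. In the adult liver *Lpl* is low in hepatocytes and is found in Kupffer cells, whereas hepatic lipase (*Lipc*) is made by hepatocytes and acts on remnants and high-density lipoprotein. Endothelial lipase (*Lipg*) acts mainly on the phospholipids of high-density lipoprotein.

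Between 19605286 and 24461854 reads per vehicle library and between 17457106 and 21626399 reads per ISOGK library were counted on genes. *Alb* was the most abundant gene in every library, as befits liver, while *Apoe* had 3252 to 6489 counts per library, so that the knockout rests on the labels. One library stood apart by its muscle markers: in vehicle-treated mouse 4, each of 11 skeletal muscle markers had its highest level. Their summed level was 86.5 CPM (read counts scaled to a common library size), against at most 0.681 CPM in any other library. Muscle is rich in *Lpl*, so the results were also computed without vehicle-treated mouse 4. Over all tested genes, ISOGK-treated mouse 4 differed most from the other mice of its group. The chi-square per gene between its counts and theirs was 84.8 to 99.6. It was 33.2 to 66.8 between the other ISOGK-treated mice and 18.1 to 33.5 between vehicle-treated mice. The scaling (TMM) factor of ISOGK-treated mouse 4 was the lowest, at 0.883. Fits without that mouse are given as well. Nothing beyond the labels shows that the libraries are separate mice.

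*Lpl* and *Lipc* were lower and *Angptl4* was higher in ISOGK-treated than in vehicle-treated livers. *Lpl* fell to 50.2% of its vehicle level and *Lipc* to 75.6%, while *Angptl4* rose to 148%. Only *Lpl* kept its call in all 8 fits that left out 1 mouse. *Lipc* and *Angptl4* kept theirs in 2 each, and the groups overlapped for *Angptl4*. *Angptl8* had the log2 fold change of largest size among the 7 genes, but its level also varied most between mice and it did not pass the test. *Lipg*, *Gpihbp1* and *Lmf1* did not pass the test either. Calls were made with edgeR's quasi-likelihood test at an adjusted p under 0.05 over all 12307 genes.

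Of the 7 genes, 3 were called (42.9%), where 7.55% of all tested genes were called. The 2 called lower stand against 3.44% of all genes called lower, and the 1 called higher against 4.11%. Over all genes 506 were called higher and 423 lower, and with counts scaled by library size alone the split was 262 higher and 804 lower. With the study's second condition, an absolute log2 fold change over 1, edgeR called 0 of the 7 genes, although 4 had an unadjusted p under 0.05; DESeq2 called 0 and limma-voom 2, *Lpl* and *Angptl8*. Over all genes, 1.63% met both conditions by edgeR and 1.69% by limma-voom, and 0.626% met them by edgeR and were lower with ISOGK. For 2 of the 7 genes, *Lpl* and *Lipc*, the mice of the groups did not overlap, as for 15.3% of all tested genes.

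**Figure D1:**
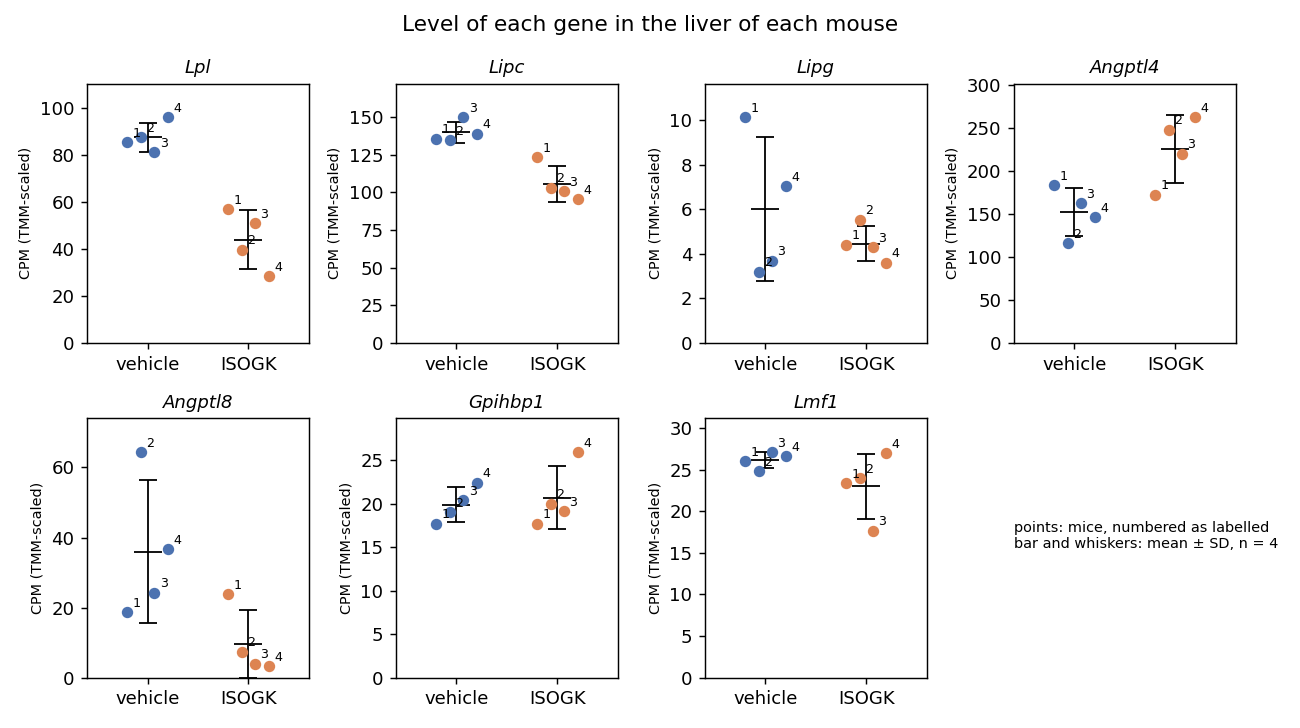
Level of the 7 genes in CPM (vertical axis, scaled with TMM factors, starting at 0) in each vehicle-treated and ISOGK-treated mouse. Points are mice with their replicate number, and bars with whiskers are the mean ± SD (n = 4 per group). The groups are apart for *Lpl* and *Lipc* and overlap for the other genes.

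The lipases are described first. *Lpl* (chromosome 8, 68880491 to 68907448 in GRCm38, plus strand) had 85.5, 87.7, 81.3 and 96.0 CPM in vehicle-treated mice 1 to 4, which corresponds to 1704 to 2216 reads. In ISOGK-treated mice 1 to 4 it had 56.9, 39.7, 50.9 and 28.3 CPM, from 540 to 1160 reads. The vehicle-treated mice lay close together, the ISOGK-treated mice were all below them, and ISOGK-treated mouse 4 was the lowest. The mean was 87.6 ± 6.18 CPM (SD, n = 4) with vehicle and 44.0 ± 12.6 CPM with ISOGK, a log2 fold change of -0.995 (standard error 0.18, 95% interval -1.39 to -0.60, edgeR adjusted p = 0.00951). In the two-sided exact permutation test over the 8 mice the p-value was 0.0286, the smallest that 4 against 4 allows. When each mouse was omitted, the log2 fold change lay between -1.15 and -0.83 and the gene was called in all 8 fits (edgeR adjusted p from 0.00353 to 0.0352). Without vehicle-treated mouse 4 it was -0.95 (edgeR adjusted p = 0.0313).

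In these bulk libraries, fewer cells of a type that express a gene and less of its RNA per cell cannot be told apart. Of 12 markers of macrophages and Kupffer cells, 11 had a lower mean with ISOGK and 1 passed the test, *Cd68*, a lysosomal glycoprotein of macrophages (50.6 ± 4.79 and 34.0 ± 4.23 CPM, log2 fold change -0.57, edgeR adjusted p = 0.00900). The median log2 fold change of these markers was -0.35, and their summed level was 1627 to 2085 CPM with vehicle and 1342 to 1713 CPM with ISOGK, so that the groups overlapped. Of 8 markers of lipid-associated macrophages, 1 passed the test: *Gpnmb*, a transmembrane glycoprotein of lipid-laden macrophages, fell from 162 ± 14.8 to 71.0 ± 5.45 CPM (log2 fold change -1.19, edgeR adjusted p = 6.48e-05). The summed level of that list was 914 to 1055 CPM with vehicle and 726 to 876 CPM with ISOGK, without overlap. Of these 8 markers 4 had a negative and 4 a positive log2 fold change, with a median log2 fold change of -0.021, and the sum was led by *Ctsd*, the gene of the lysosomal protease cathepsin D, with 732 CPM with vehicle and 616 CPM with ISOGK (edgeR adjusted p = 0.142). None of the 12 macrophage and 8 lipid-associated macrophage markers was at 0 in all libraries. The part of macrophages in the lower *Lpl* was not tested. Of 10 adipocyte markers, 5 were in the table and their summed level was 31.5 to 33.1 CPM with vehicle and 28.8 to 36.6 CPM with ISOGK; *Adipoq*, *Plin1*, *Lep* and *Retn*, which define the cell type, were not among them.

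*Lipc* (chromosome 9, 70798128 to 70952226, minus strand) had 136, 135, 150 and 139 CPM in vehicle-treated mice 1 to 4 and 123, 103, 101 and 95.5 CPM in ISOGK-treated mice 1 to 4. Every ISOGK-treated mouse was below every vehicle-treated mouse, and ISOGK-treated mouse 1 was nearest to them. The mean was 140 ± 6.90 CPM (SD, n = 4) with vehicle and 106 ± 12.1 CPM with ISOGK, a log2 fold change of -0.40 (standard error 0.10, 95% interval -0.62 to -0.19, edgeR adjusted p = 0.0299). The spread between vehicle-treated mice was small, with a coefficient of variation of 4.93%, and it was 11.5% between ISOGK-treated mice. The call was lost without any one of vehicle-treated mice 1, 2, 3 and 4 (edgeR adjusted p = 0.0621, 0.0729, 0.0922 and 0.0672) and without ISOGK-treated mouse 2 or 4 (0.0767 and 0.0577), while the log2 fold change stayed between -0.49 and -0.36. Markers of hepatocytes, the cells that make hepatic lipase, had a summed level of 160538 to 174053 CPM with vehicle and 151421 to 195043 CPM with ISOGK. The sum mainly followed *Alb*, with a mean of 123533 CPM with vehicle and 125411 CPM with ISOGK. Of 9 markers edgeR called 0 (DESeq2 1, limma-voom 0, and 1 had an unadjusted p under 0.05).

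*Lipg* (chromosome 18, 74939322 to 74961263, minus strand) was the least abundant of the 7 genes, with 69 to 202 reads per library. It had 10.1, 3.20, 3.70 and 7.06 CPM in vehicle-treated mice 1 to 4 and 4.41, 5.54, 4.30 and 3.62 CPM in ISOGK-treated mice 1 to 4. Vehicle-treated mice 1 and 4 were above all ISOGK-treated mice and vehicle-treated mouse 2 was below all of them. The log2 fold change was -0.42 with a 95% interval from -1.18 to 0.34 (edgeR adjusted p = 0.502), so that a fall to 44.1% or a rise to 127% of the vehicle level lies within the interval. Without vehicle-treated mouse 1 the log2 fold change was -0.053 (edgeR adjusted p = 0.936).

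Among the other listed secreted or lysosomal lipases, *Pla1a*, which encodes a phosphatidylserine-specific phospholipase, fell from 41.1 ± 3.54 to 32.0 ± 2.01 CPM (log2 fold change -0.36, edgeR adjusted p = 0.0384). *Lipa*, the lysosomal acid lipase gene, differed by 0.17 on the log2 scale (edgeR adjusted p = 0.361). Of 7 listed genes 4 were in the table, and only these 2 had enough counts to be tested.

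**Figure D2:**
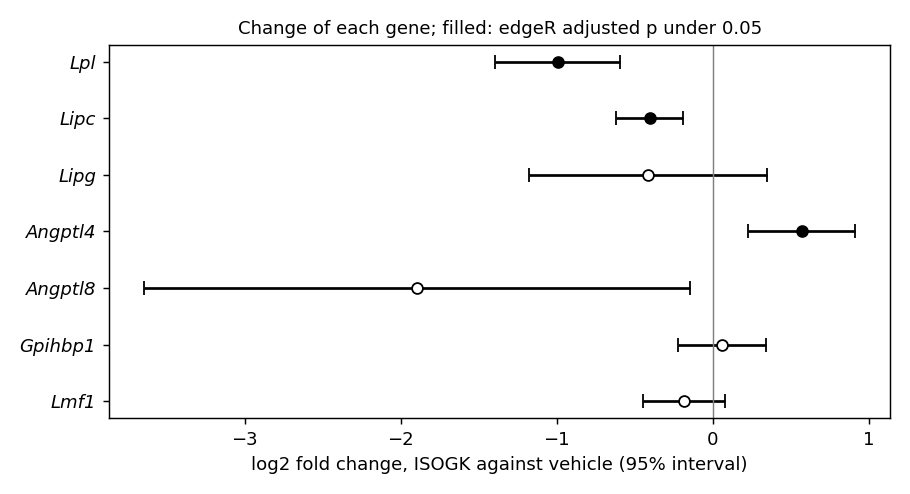
Log2 fold change of each gene in ISOGK-treated against vehicle-treated mice (horizontal axis) with its 95% interval from edgeR. Filled points passed an adjusted p under 0.05; the interval is widest for *Angptl8*, from -3.64 to -0.15, and excludes 0 without passing the adjusted threshold.

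The differences of *Angptl4* and *Angptl8* had opposite signs. *Angptl4* (chromosome 17, 33773750 to 33781830, minus strand), a fasting-induced inhibitor of lipoprotein lipase and a known target of PPARα, had 183, 116, 162 and 146 CPM in vehicle-treated mice 1 to 4. It had 172, 248, 220 and 262 CPM in ISOGK-treated mice 1 to 4. ISOGK-treated mice 2, 3 and 4 were above all vehicle-treated mice, and ISOGK-treated mouse 1 was below vehicle-treated mouse 1. The mean was 152 ± 28.2 CPM (SD, n = 4) with vehicle and rose to 225 ± 39.7 CPM with ISOGK, by 0.57 on the log2 scale (standard error 0.16, 95% interval 0.23 to 0.91, edgeR adjusted p = 0.0482). The exact permutation test gave a two-sided p of 0.0571. The adjusted p was close to the threshold: the call was lost with limma-voom (adjusted p = 0.0552), with library size alone (0.0934) and without the robust option (0.0543). It was also lost without vehicle-treated mouse 2, 3 or 4 (edgeR adjusted p = 0.132, 0.0914 and 0.106) and without ISOGK-treated mouse 2, 3 or 4 (0.125, 0.0691 and 0.115), with log2 fold changes from 0.46 to 0.60.

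*Angptl8* (chromosome 9, 21835510 to 21837347, plus strand), whose hepatic expression is known to rise with feeding and insulin, had 18.7, 64.4, 24.3 and 36.7 CPM in vehicle-treated mice 1 to 4. It had 23.7, 7.44, 4.01 and 3.25 CPM in ISOGK-treated mice 1 to 4. ISOGK-treated mice 2 to 4 were below every vehicle-treated mouse, whereas ISOGK-treated mouse 1 was above vehicle-treated mouse 1. The highest value was 3.45 times the lowest among vehicle-treated mice and 7.31 times the lowest among ISOGK-treated mice, against 1.18 and 2.01 for *Lpl*. The mean was 36.0 ± 20.3 CPM (SD, n = 4) with vehicle and 9.61 ± 9.59 CPM with ISOGK, and the log2 fold change was -1.90 (standard error 0.73, 95% interval -3.64 to -0.15, edgeR adjusted p = 0.177). The exact permutation test gave a two-sided p of 0.0571. The call depended on the test and on 1 mouse: the adjusted p was 0.0748 with DESeq2 and 0.0387 with limma-voom, where the log2 fold change was -2.19, and without ISOGK-treated mouse 1 edgeR gave -2.88 (adjusted p = 0.0307).

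The *Angptl8* gene lies wholly inside the span of *Dock6*, which is on the opposite strand, with 0 exonic bases in common. *Dock6* had 122 to 285 counts per library and was lower by a log2 difference of -0.56 (edgeR adjusted p = 0.0310), and *Angptl8* had 62 to 1627. The use of strand in counting is not given in the sources used here, so reads from the introns of *Dock6* and reads from *Angptl8* cannot be told apart. None of the 7 genes shared exonic bases with another annotated gene.

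The mice of a group were also ordered by these genes. Among vehicle-treated mice the order from low to high *Angptl4* was mouse 2, 4, 3 and 1, and from high to low *Angptl8* it was the same, whereas *Lpl* did not follow it. ISOGK-treated mouse 1 had the lowest *Angptl4* and the highest *Angptl8*, *Lpl* and *Lipc* of its group, and ISOGK-treated mouse 4 had the highest *Angptl4* and the lowest *Angptl8*, *Lpl* and *Lipc*. Within one library, the ratio of *Angptl4* to *Lpl* does not depend on how libraries are scaled. Per kilobase of exon it was 6.34, 3.92, 5.90 and 4.51 in vehicle-treated mice 1 to 4 and 8.95, 18.5, 12.8 and 27.4 in ISOGK-treated mice 1 to 4, so that each ISOGK-treated mouse had more *Angptl4* for its *Lpl* than any vehicle-treated mouse. The size of the ratio depends on the length taken for each gene: with the longest principal transcript the vehicle group ranged from 1.65 to 2.66 and the ISOGK group from 3.76 to 11.5, again without overlap. This ratio and these orders were chosen after the values had been seen and are given with no test.

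**Figure D3:**
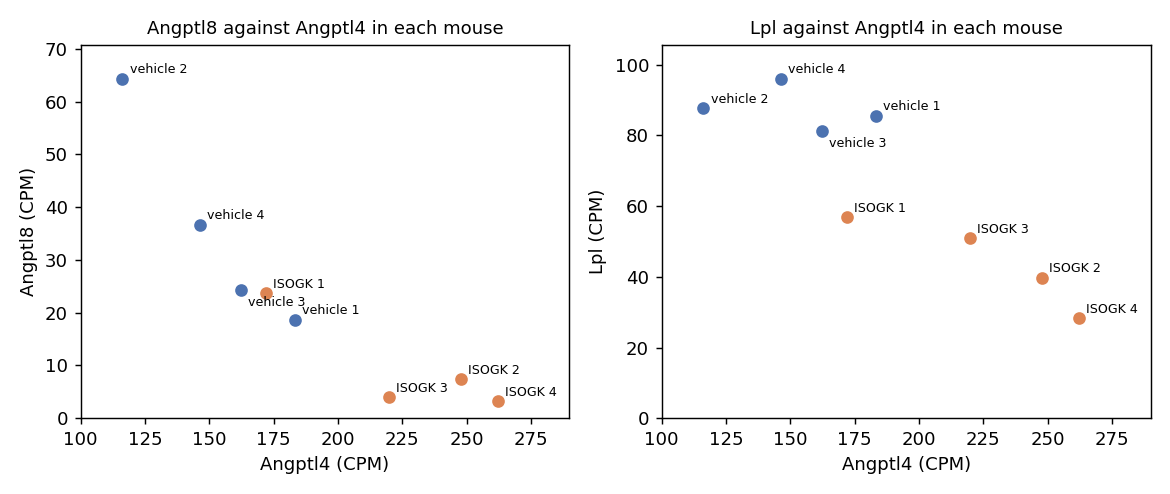
*Angptl8* (left) and *Lpl* (right) on the vertical axis against *Angptl4* on the horizontal axis, all in CPM, with 1 point per mouse and the colour of its group. Mice with more *Angptl4* have less *Angptl8* in the vehicle group, from 64.4 CPM in mouse 2 to 18.7 CPM in mouse 1, and ISOGK-treated mouse 1 lies beside vehicle-treated mouse 3 for *Angptl8*.

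The proteins that carry and mature the enzyme are described next. *Gpihbp1* (chromosome 15, 75596628 to 75599481, plus strand), which is made by capillary endothelium and binds lipoprotein lipase, had 17.7, 19.0, 20.4 and 22.4 CPM in vehicle-treated mice 1 to 4 and 17.7, 20.0, 19.2 and 25.9 CPM in ISOGK-treated mice 1 to 4. The groups overlapped over most of their range. The log2 fold change was 0.057 with a 95% interval from -0.22 to 0.34 (edgeR adjusted p = 0.830), and it was -0.083 with library size alone and -0.070 without ISOGK-treated mouse 4. Of 10 endothelial markers edgeR called 0 (DESeq2 0, limma-voom 0, and 1 had an unadjusted p under 0.05), with a summed level of 416 to 466 CPM with vehicle and 400 to 454 CPM with ISOGK.

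*Lmf1* (chromosome 17, 25579085 to 25662826, plus strand) had 26.0, 24.8, 27.1 and 26.6 CPM in vehicle-treated mice 1 to 4 and 23.4, 24.0, 17.6 and 27.0 CPM in ISOGK-treated mice 1 to 4. ISOGK-treated mouse 3 was the lowest and mouse 4 lay among the vehicle-treated mice. The log2 fold change was -0.18 with a 95% interval from -0.45 to 0.078 (edgeR adjusted p = 0.383), so a fall to 73.4% of the vehicle level lies within the interval. Of 12 genes of lipase folding and proprotein cleavage, such as *Canx* and *Furin*, edgeR called 0, while 2 had an unadjusted p under 0.05, DESeq2 called 1 and limma-voom 0. *Canx*, which encodes the chaperone calnexin, had a mean of 250 CPM with vehicle and 194 CPM with ISOGK (log2 difference -0.36, edgeR adjusted p = 0.0824).

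Levels of different genes were compared per kilobase of exon. In vehicle-treated mice *Lipc* had the highest level, with 65.1 ± 3.21 CPM per kilobase, followed by *Angptl4* with 42.9 ± 7.97 and *Angptl8* with 41.6 ± 23.5, which overlapped each other, and *Angptl8* also overlapped *Lipc*. *Lpl* with 8.36 ± 0.590 and *Gpihbp1* with 7.79 ± 0.788 overlapped as well, and *Lmf1* and *Lipg* were lowest, with 1.92 ± 0.0719 and 1.28 ± 0.685 (SD, n = 4 each), and overlapped. In ISOGK-treated mice *Angptl4* led with 63.7 ± 11.2 CPM per kilobase, above *Lipc* with 49.2 ± 5.65, and the ranges of these genes overlapped. *Gpihbp1* with 8.11 ± 1.42 lay above *Lpl* with 4.20 ± 1.21, without overlap. When the longest principal transcript was taken as the length, an alternative added after the data had been seen, *Lipc* stayed highest in the vehicle group, but the order below it changed. *Gpihbp1*, with 24.1, then lay above *Lpl*, with 21.3, and *Lmf1*, with 14.1 ± 0.526, stood far above *Lipg*, with 1.59 ± 0.853. In the ISOGK group by this length, *Lmf1* with 12.4, *Angptl8* with 11.1 and *Lpl* with 10.7 CPM per kilobase followed *Gpihbp1* with 25.1.

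RefSeq promoter sequences (GRCm38.p6, from 250 bases before to 50 bases after the start) were at hand for 3 of the 7 genes. Those of *Lipc*, which has both an upstream and an internal start, and of *Angptl8* are shown. The third gene was *Lmf1*, whose window is not shown. All 3 had a lower mean with ISOGK, *Lmf1* with 26.1 CPM with vehicle and 23.0 CPM with ISOGK. The windows are chr9:70952172-70952471 (minus strand) and chr9:70934759-70935058 (minus strand) for *Lipc* and chr9:21835260-21835559 (plus strand) for *Angptl8*. Capitals mark matches, on either strand, to the nuclear receptor half-site AGGTCA, the E-box CACGTG, the TATA box TATAAA or the CCAAT box.

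*Lipc* upstream start: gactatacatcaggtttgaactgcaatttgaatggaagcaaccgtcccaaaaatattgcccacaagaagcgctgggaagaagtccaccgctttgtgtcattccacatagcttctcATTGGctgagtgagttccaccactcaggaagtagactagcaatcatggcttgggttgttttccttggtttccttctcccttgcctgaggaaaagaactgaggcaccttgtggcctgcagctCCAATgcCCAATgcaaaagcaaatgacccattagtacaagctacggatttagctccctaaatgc

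*Lipc* internal start: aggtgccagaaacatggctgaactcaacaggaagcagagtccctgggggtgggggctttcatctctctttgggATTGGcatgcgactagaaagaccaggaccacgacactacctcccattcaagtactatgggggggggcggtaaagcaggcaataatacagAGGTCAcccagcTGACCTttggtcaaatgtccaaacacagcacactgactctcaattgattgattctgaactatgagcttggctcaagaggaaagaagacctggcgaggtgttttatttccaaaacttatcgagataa

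*Angptl8* start: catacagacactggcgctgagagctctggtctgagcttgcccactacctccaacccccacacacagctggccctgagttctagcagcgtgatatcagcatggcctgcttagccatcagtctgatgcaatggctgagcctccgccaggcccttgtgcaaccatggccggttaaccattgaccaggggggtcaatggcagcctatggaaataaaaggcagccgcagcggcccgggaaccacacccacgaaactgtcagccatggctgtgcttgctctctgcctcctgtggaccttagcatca

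The upstream start of *Lipc* had 3 matches to CCAAT, at -135, -14 and -7 from the start. The internal start had 1 match to CCAAT at -177 and 2 to AGGTCA at -88 and -76, on opposite strands. The window of *Angptl8* held none of these letters. Of 32851 promoters in the table, 37.4% held CCAAT, 16.3% AGGTCA, 13.6% TATAAA and 7.15% CACGTG. The counts per gene do not separate the starts of *Lipc*.

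Around these genes, lists of the wider pathway were described by counts. These lists were written with earlier results of these data known. Apolipoproteins that activate or inhibit lipases, such as the activators *Apoc2* and *Apoa5*, showed no call by edgeR among 7 tested, although 1 had an unadjusted p under 0.05 and DESeq2 called 1 and limma-voom 0. *Apoc2*, the obligate cofactor of lipoprotein lipase, had 110 CPM with vehicle and 111 CPM with ISOGK (log2 fold change 0.011, edgeR adjusted p = 0.972). *Apoa5* had 928 and 1126 CPM (log2 fold change 0.28, edgeR adjusted p = 0.242). The median of the list was 0.097, against 0.0018 for all tested genes and -0.40 for the 7 genes.

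Of 7 tested intracellular lipases and their partners, 4 rose and none fell, with a median log2 fold change of 0.40. *Mgll*, monoacylglycerol lipase, rose from 86.8 ± 14.2 to 159 ± 22.1 CPM (log2 fold change 0.88, edgeR adjusted p = 0.00336). *Abhd6*, another monoacylglycerol lipase, and *Nceh1*, a neutral cholesteryl ester hydrolase, rose by 0.55 and 0.39 on the log2 scale (edgeR adjusted p = 0.0181 and 0.0347). The fourth was *Pnpla2*, adipose triglyceride lipase (0.40, edgeR adjusted p = 0.0466). *G0s2*, one of the partners rather than a lipase, had the largest log2 fold change of the list and was not called. Its mean was 32.9 CPM with vehicle and 68.3 CPM with ISOGK (log2 fold change 1.05, edgeR adjusted p = 0.0975).

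Among 10 reported receptors and proteoglycans that take up lipoprotein remnants, 1 was called: *Sort1*, an intracellular sorting receptor, rose from 11.3 ± 2.33 to 18.8 ± 2.37 CPM (log2 fold change 0.73, edgeR adjusted p = 0.0154). The share called in that list was 10%, against 7.55% of all tested genes. In that list 4 genes had an unadjusted p under 0.05, and DESeq2 called 4 and limma-voom 1. *Vldlr*, the very low-density lipoprotein receptor gene, and *Scarb1*, a receptor for high-density lipoprotein, had log2 fold changes of -0.71 and -0.35 without overlap between the groups (edgeR adjusted p = 0.0680 and 0.0699). *Lrp1*, a remnant receptor of the liver, differed by -0.19 on the log2 scale (edgeR adjusted p = 0.237).

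Of 15 transcriptional regulators known to act on these genes, edgeR called 1 higher and 3 lower (26.7%, against 7.55% of all tested genes). DESeq2 and limma-voom called 4 each. *Mlxipl*, which encodes ChREBP, and *Srebf1* are factors of the fed state and fell from 89.1 ± 11.4 to 41.0 ± 6.75 CPM and from 68.9 ± 15.3 to 22.7 ± 7.70 CPM (edgeR adjusted p = 0.000908 and 0.00592). *Creb3l3*, a factor of fasting that induces activators of lipoprotein lipase, rose from 200 ± 23.4 to 269 ± 19.5 CPM (log2 fold change 0.43, edgeR adjusted p = 0.0328). *Nr3c1*, the glucocorticoid receptor gene, fell by 0.41 on the log2 scale (edgeR adjusted p = 0.0376).

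*Angptl4* had the same direction as the listed PPARα targets. Of 22 tested targets edgeR called 20 higher and 0 lower (90.9%, against 7.55% of all tested genes). Their median log2 fold change was 1.22, against 0.57 for *Angptl4*. *Ehhadh*, an enzyme of peroxisomal beta-oxidation, rose by 2.57 on the log2 scale (edgeR adjusted p = 4.65e-07), and the fatty acid hydroxylases *Cyp4a14* and *Cyp4a10*, close copies whose reads may be shared, by 2.12 and 2.02. Of 13 tested lipogenic genes that respond to feeding and insulin, edgeR called 9 lower and 1 higher (76.9%), with a median of -0.88. Besides *Mlxipl*, *Pklr*, liver pyruvate kinase, fell by 1.28 on the log2 scale, and *Fasn*, fatty acid synthase, by 1.06 (edgeR adjusted p = 5.22e-05 and 0.00163). *Thrsp*, a gene of lipogenesis, had a log2 fold change of -1.79 with a 95% interval from -2.41 to -1.18 (edgeR adjusted p = 0.00627), inside the wider interval of *Angptl8*, which was not called. Both lists were written with earlier results of these data known, so their directions are a description. The part of PPARα or of feeding in the level of *Angptl4* was not tested. The study's methods do not say whether these mice were fasted at collection.

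**Figure D4:**
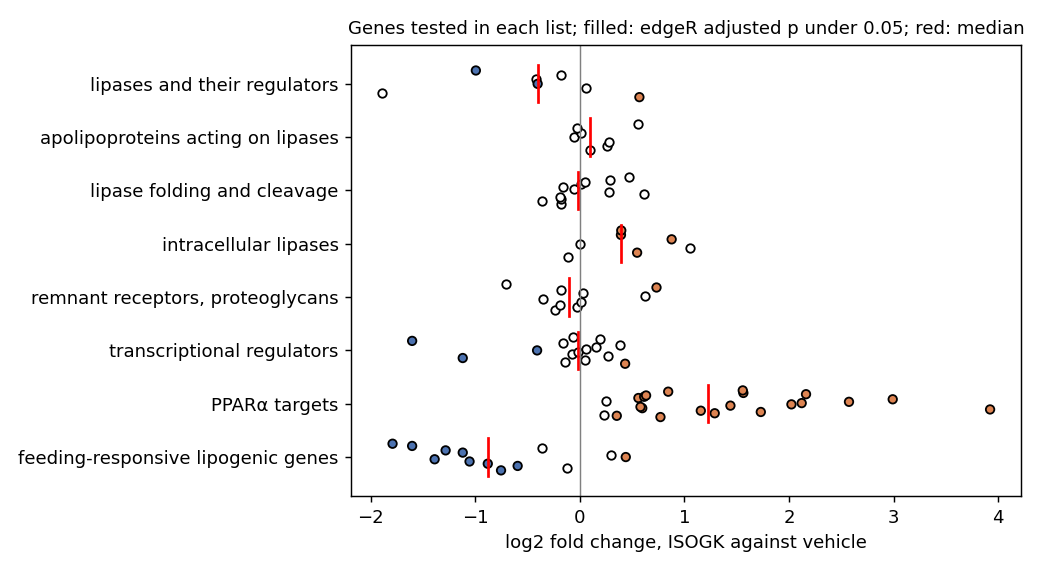
Log2 fold change of each tested gene (horizontal axis) in the lipase genes and 7 lists around them, with 1 point per gene, filled where the edgeR adjusted p was under 0.05, and a red line at the median of each list. PPARα targets lie to the right (median 1.22) and feeding-responsive lipogenic genes to the left (median -0.88), while apolipoproteins and folding genes lie around 0.

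**Figure D5:**
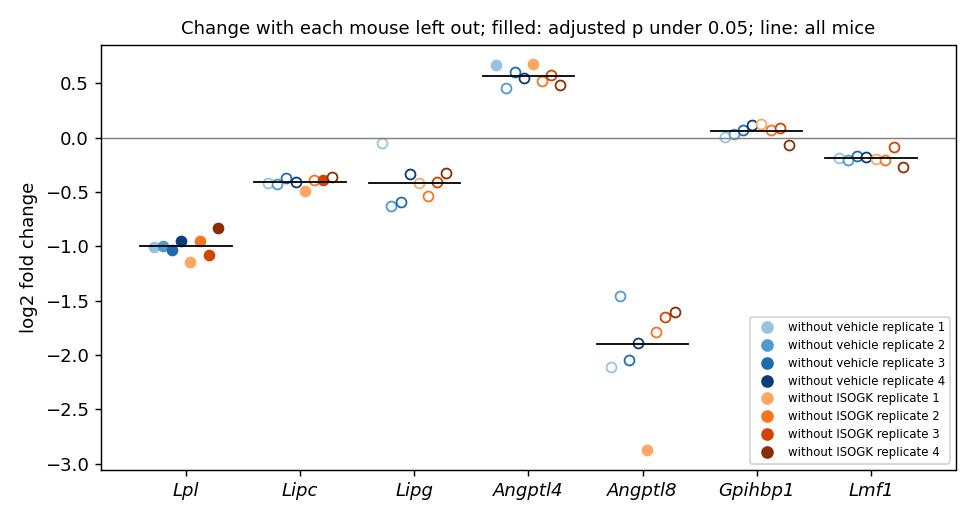
Log2 fold change of each gene (vertical axis) with each mouse left out in turn, by colour, filled where the edgeR adjusted p was under 0.05; black lines give the value with all mice. *Lpl* is filled in all 8 fits, *Lipc* and *Angptl4* in 2 each, and *Angptl8* in 1, without ISOGK-treated mouse 1.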

How the data were processed

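Liver RNA was sequenced from 8 mice. Per the study's methods, the authors aligned single-end Illumina reads with HISAT2 to the Ensembl mouse genome and computed gene counts with StringTie; the submitters' processing notes name mm10, and the use of strand is not given in the sources used here. The deposited values are raw counts per gene symbol. Columns named DMSO were taken as vehicle, matched by replicate number.

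Genes were filtered with filterByExpr (minimum count 10, minimum total 15), scaled with TMM and tested in edgeR 4.0.16 (quasi-likelihood, robust, R 4.3.3), with Benjamini-Hochberg adjustment over 12307 genes. CPM use TMM factors; log2 CPM use a prior count of 2. Standard errors come from the quasi-likelihood F. Alternatives were DESeq2 1.42.0, limma-voom (limma 3.58.1), other scalings and filters, no robust option, a block for the replicate number, and fits that omit 1 mouse. Precision from depth covers counting error only, since reads carry no molecular identifiers. The methods were tested on simulated data, in which every changed gene had an absolute log2 fold change of at least 1. Recovery of smaller changes, such as those of *Lipc* and *Angptl4*, was not tested. In the simulated data edgeR called 179 of 197 changed genes and 17 unchanged genes. DESeq2 called 181 of 200 changed and 26 unchanged genes, and limma-voom 179 of 197 changed and 16 unchanged genes.

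Lengths and coordinates are from GENCODE M21 (GRCm38, the same assembly as mm10), in which all 7 symbols matched. The genes and lists were chosen with earlier results of these data known. Genes of each list that passed the test were named, at most 3 per list, besides a few chosen after their values were seen (*Apoa5*, *Apoc2*, *Canx*, *Ctsd*, *Dock6*, *G0s2*, *Lipa*, *Lrp1*, *Nr3c1*, *Pnpla2*, *Scarb1*, *Thrsp*, *Vldlr*). Some genes under these rules are not reported here.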

Additional observations from a re-analysis of the deposited data

How the results depend on the processing

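*Lpl* kept its call and direction in all 16 alternatives, with log2 fold changes from -1.15 to -0.83. With all mice, *Lipc* was called in every other test, scaling and filter; *Angptl4* lost its call with limma-voom (0.57), library size alone (0.43) and no robust option (0.57), and *Angptl8* gained one with limma-voom (-2.19). The replicate numbers are shared by the groups but not said to pair mice; deviations of same-numbered mice correlated at -0.014 to 0.085 and not every mouse correlated best with its own number. With the replicate block 2 of the 7 genes were called, *Angptl4* (0.57, edgeR adjusted p = 0.112) losing its call, and 827 genes were called in all. *Gpihbp1* changed sign with library size alone (-0.083) and without ISOGK-treated mouse 4 (-0.070); library size alone moved the median of all genes by -0.13. DESeq2 called 1405 genes, against 929 by edgeR. With each mouse left out, 1 to 4 of the 7 genes and 379 to 1235 of all genes were called; fewer samples enter these fits. It was 1 of the 7 without vehicle-treated mouse 2, 3 or 4 or ISOGK-treated mouse 2 or 4, and 511, 379, 496 and 550 of all genes without vehicle-treated mice 1 to 4 and 471 without ISOGK-treated mouse 2. The log2 fold changes then ranged from -0.49 to -0.36 for *Lipc*, 0.46 to 0.68 for *Angptl4*, -2.88 to -1.46 for *Angptl8* and -0.070 to 0.13 for *Gpihbp1*. With the length of the longest principal transcript, levels per kilobase in the vehicle and ISOGK groups were 21.3 and 10.7 for *Lpl*, 72.9 and 55.0 for *Lipc*, 24.1 and 25.1 for *Gpihbp1* and 14.1 and 12.4 for *Lmf1*, and 1.18 for *Lipg* with ISOGK. The causes of these differences were not tested. Counts per library were lowest for *Lipg* (69 to 202 reads) and for *Angptl8* in the ISOGK group (62 to 484 reads), which limits the precision of both.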

Other observations

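Among other angiopoietin-like genes in these livers, *Angptl6*, a secreted factor linked to energy expenditure, had 8.27 CPM with vehicle and 5.78 CPM with ISOGK (log2 fold change -0.52, edgeR adjusted p = 0.0957). *Angptl2* and *Angptl7* had log2 fold changes of 0.13 and 0.37 (edgeR adjusted p = 0.783 and 0.622), and *Angptl1* had at most 8 counts in any library and was not tested.

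The genes whose levels followed *Lpl* most closely from mouse to mouse, by Pearson's r between deviations of log2 CPM from the group means over the 8 mice, were *Gm45753* (0.98), *Prr14l* (0.97) and *Trim12c* (0.96). For *Angptl4* they were *Cct6a* (0.98), *Tstd2* (0.97) and *Tsc22d3* (0.96), and for *Angptl8* they were *Zswim4* (0.98), *Cry2* (0.96) and *Csrnp1* (0.96). Each is the top of 11465 genes searched over 8 mice that share their scaling factors, and no test was made.

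*Trim12c* was the only one of these 9 genes with an edgeR adjusted p under 0.05 between the groups (log2 fold change -0.90, adjusted p = 0.0480).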
